A study of Mus musculus with 32 samples.

Results

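Mitochondrial biogenesis is the making of new mitochondria under the direction of nuclear genes, and 10 genes that govern it were followed in laser-captured spinal motor neurons and glia of transgenic mice. They are Ppargc1a, Ppargc1b and Sirt1 (coactivators and a deacetylase that acts on them), Esrra, Esrrg, Nrf1 and Gabpa (DNA-binding factors), and Tfam, Tfb1m and Tfb2m (factors that work on mitochondrial DNA). They were found as every non-control probe of the array that carried one of these gene names, which gave 10 of 27573 genes and 24 of 41174 probes. Ppargc1a was chosen because its ratio stood out in SOD1-G93A glia, so every member value from that comparison is a description and carries no test.

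Gene expression was measured on 32 Agilent 2-colour arrays, each holding 1 transgenic and 1 littermate control extract of female mice. SOD1-G93A mice (B6SJL-Tg(SOD1-G93A)1Gur) and their B6SJL littermates were 8 weeks old, and TAU-P301L mice (B6D2F1-Tg(TAU-P301L)) and their B6D2F1 littermates were 16 weeks old, so model, age and strain differ together. The 4 comparisons were named SODmn and TAUmn for lumbar anterior horn motor neurons and SODgl and TAUgl for the glia around them. Each had 4 littermate pairs. A pair was measured as a dye swap of 2 arrays and counted once. The SOD1-G93A line carries mutant human superoxide dismutase, is not limited to 1 cell type and is used as a model of amyotrophic lateral sclerosis. The TAU-P301L line carries mutant human tau, and the labels name no promoter for it. Captures of 500 cells per mouse were picked by morphology and their RNA was amplified, and in such samples fewer cells of a type and less RNA per cell cannot be told apart.

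The coactivator encoded by Ppargc1a binds no DNA itself. It docks on nuclear receptors such as the estrogen-related receptors and on the factors NRF1 and GABP, and these switch on genes of respiration and the factors that copy and transcribe mitochondrial DNA. Neurons depend on this programme for oxidative energy supply, and mitochondrial damage is a known feature of mutant SOD1 motor neuron disease.

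The values rest on captures of uneven quality. Over the genes tested, the 2 dye-swapped arrays of a pair correlated at -0.75 to 0.67 after their ratios were turned the same way, and SODgl pair 2 and TAUgl pair 1 were the pairs below -0.3. Those 2 pairs were scanned together, had 5378 and 8321 probes with no value, and glial means are also given without them. The mouse probes for the transgenes could not check the genotype directly: Sod1 had a log2 ratio of -0.08 in SODmn and -0.11 in SODgl, and Mapt had -0.10 in TAUmn and 0.08 in TAUgl. Prnp, the prion protein gene, averaged 1.08 ± 0.29 in TAUmn and 0.89 ± 0.19 in TAUgl (SD, n = 4 pairs), above 0 in either cell type of that line, with limma adjusted p of 0.214 and 0.142. In control extracts, motor neuron captures had more RNA of 5 of 9 tested motor neuron markers than glia captures (Snap25 by 2.27 and Nefm by 1.67 on the log2 scale) and less of Mnx1. In the same comparison 4 of 8 astrocyte and 5 of 8 oligodendrocyte markers were lower in motor neurons (Glul by -1.60, Mag by -1.76). So were 1 of 7 microglia and 1 of 6 endothelial and pericyte markers. Of all genes tested there, 24.3% were called higher in motor neurons and 12% lower (limma adjusted p under 0.05). Gfap, Mog, C1qa and Itgam, which define astrocytes, oligodendrocytes and microglia, were too dim to be tested in the glia comparisons, as were Prph and Slc18a3 among motor neuron genes.

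Promoter sequences of the members that hold a motif of this circuit are shown because several members are known to act on promoters of other members. RefSeq (GRCm38.p6) promoters were used for 9 of the 10 members, with Ppargc1b left out. The 250 bases before each start were searched on both strands for the cyclic AMP response element core TGACGT and the NRF1 core GCATGCGC. The ETS core CCGGAAG bound by GABPA and the estrogen-related receptor core AAGGTCA were searched in the same way. Capitals mark the match, and each sequence is written 5′ to 3′ on the strand of its gene. The cyclic AMP core stood 50 bases before the Ppargc1a start that was searched, which is not the outermost start of the annotated gene (chr5:51567726-51567975, minus strand), and 6.47% of all 32851 promoters hold it.
Ppargc1a: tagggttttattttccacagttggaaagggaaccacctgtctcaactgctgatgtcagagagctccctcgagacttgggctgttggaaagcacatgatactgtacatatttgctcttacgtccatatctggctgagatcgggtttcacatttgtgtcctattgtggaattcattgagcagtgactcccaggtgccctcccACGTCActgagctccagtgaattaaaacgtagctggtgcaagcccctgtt
The NRF1 core stood 34 bases before the Esrra start that was searched (chr19:6921809-6922058, minus strand), and 2.26% of all promoters hold it. This start, too, is not the outermost start of the annotated gene.
Esrra: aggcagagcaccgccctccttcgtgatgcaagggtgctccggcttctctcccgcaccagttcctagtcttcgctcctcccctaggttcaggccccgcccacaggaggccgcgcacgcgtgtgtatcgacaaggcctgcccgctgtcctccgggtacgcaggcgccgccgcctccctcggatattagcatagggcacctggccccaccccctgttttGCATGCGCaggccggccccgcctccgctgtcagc
The ETS core, held by 6.91% of all promoters, stood 93 bases before the Gabpa start that was searched (chr16:84835020-84835048, plus strand). It stood 47 bases before the Tfam start that was searched (chr10:71238074-71238102, minus strand). Neither is the outermost start of its annotated gene, and short windows around the core are given.
Gabpa: gagggtaagtgCTTCCGGgtccctcagct
Tfam: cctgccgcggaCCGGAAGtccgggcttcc
The receptor core AAGGTCA, held by 4.08% of all promoters, was in none of these windows, and none of the 4 motifs was in those of Esrrg, Nrf1, Tfb1m, Tfb2m or Sirt1. A match is a run of letters and no evidence of binding, and the arrays measured no binding.

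Ppargc1a was higher in transgenic than in control glia of the SOD1-G93A line by its brightest probe, and in the other 3 comparisons its ratio stayed near 0. The brightest probe matches NM_008904 and lies on chromosome 5 from 51745937 to 51745996 of mouse build mm8, per the file headers. In SODgl the pair ratios were 0.21, 0.28, 0.41 and 0.23 on the log2 scale, a mean of 0.28 ± 0.09 (SD, n = 4) or 1.22-fold. The levels behind them were 6.52, 6.66, 7.27 and 7.16 in SOD1-G93A glia, against 6.31, 6.37, 6.86 and 6.93 in littermate control glia (normalized log2 intensity). Every transgenic extract lay above its own littermate, on all 8 arrays, although the groups of levels overlapped, and 9.48% of genes tested in SODgl lay above 0 in all 4 pairs. These values selected the gene and are not a test of it.

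The second Ppargc1a probe, 51743906 to 51743965 on the same chromosome and build and annotated to AK032149, did not show the same size of ratio in SODgl. Its pair ratios there were 0.12, 0.0032, 0.11 and -0.01, a mean of 0.06 ± 0.07 (SD, n = 4). Averaging both probes gave 0.17, and taking the scanner software's own ratio for the brightest probe gave 0.79, so the size of the SODgl value depends on probe and processing. Leaving out 1 pair at a time gave 0.24 to 0.31, and leaving out SODgl pair 2, 1 of the pairs whose arrays disagreed, gave 0.29. With every pair above 0, leaving out pairs could not change the sign, and these values also describe the ratios that selected the gene.

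In the comparisons that did not choose it, Ppargc1a did not pass the test. In SODmn the ratios were -0.08, -0.10 and 0.07 in pairs 1, 3 and 4, with pair 2 missing because of a marked spot (mean -0.04 ± 0.09, 95% interval -0.17 to 0.09, limma adjusted p = 0.873). In TAUmn they were -0.01, 0.11, -0.07 and 0.17 (mean 0.05 ± 0.11, adjusted p = 0.999), and in TAUgl -0.18, 0.02, -0.04 and 0.06 (mean -0.04 ± 0.11, adjusted p = 0.874). These ratios fall on both sides of 0 in each comparison. In TAUgl pair 1 the 2 arrays gave 0.70 and -1.06, and without that pair the mean was 0.01. The plot of single arrays shows this pair and the agreement of the SODgl arrays.

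**Figure D1:**
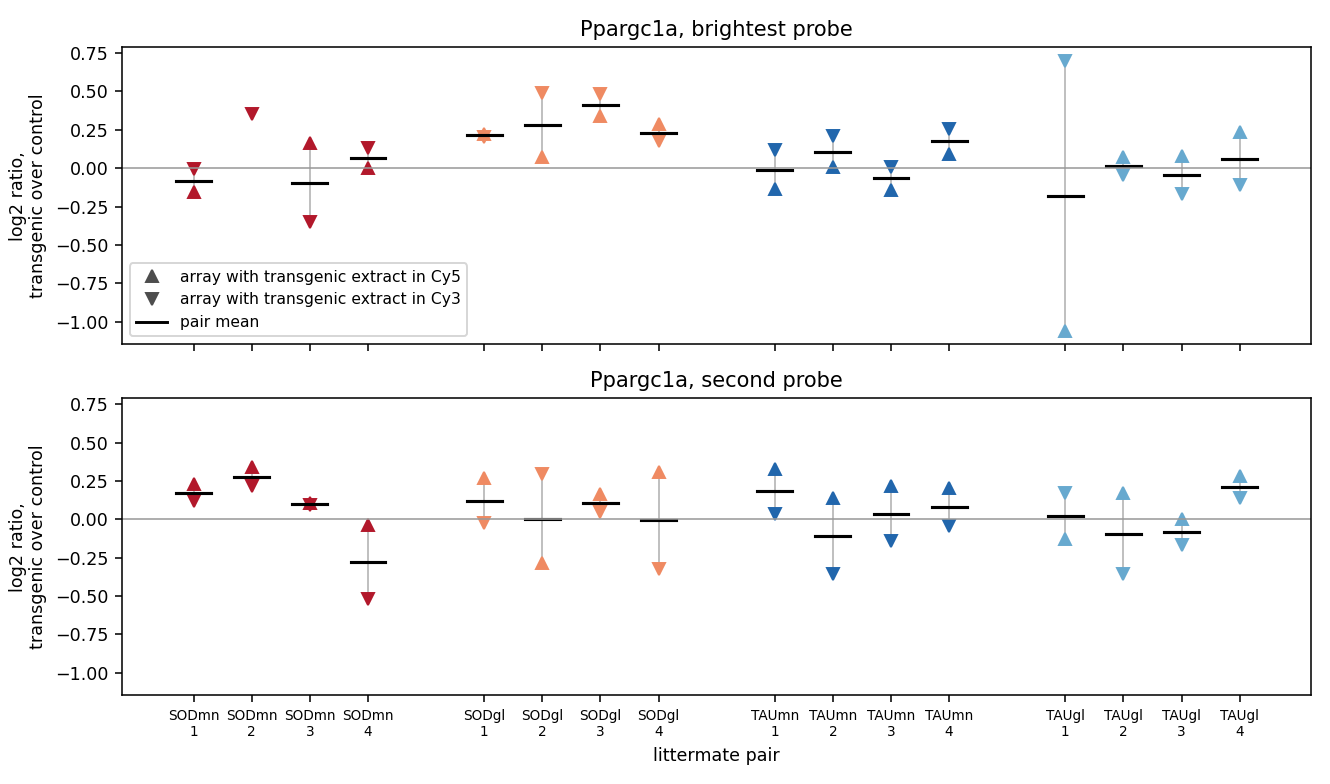
Log2 ratio (transgenic over control) of both Ppargc1a probes on every array, by littermate pair; triangles point up where the transgenic extract was in Cy5 and down where it was in Cy3, and black bars are pair means. All 8 SODgl arrays lie above 0 with the brightest probe, the second probe has SODgl pair means of 0.12, 0.0032, 0.11 and -0.01, and TAUgl pair 1 spans 0.70 to -1.06.

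Ppargc1b, the close relative of Ppargc1a that also coactivates estrogen-related receptors, did not pass in any tested comparison. In SODmn its ratios were -0.09, 0.0054, 0.61 and 0.27 (mean 0.20 ± 0.31, adjusted p = 0.539), and the pairs split by scan, with a mean of 0.44 in pairs 3 and 4 and -0.04 in pairs 1 and 2. In TAUmn the mean was -0.10 ± 0.17 (adjusted p = 0.999). In TAUgl the ratios were -0.0029, -0.21, -0.23 and -0.34 (mean -0.19 ± 0.14, adjusted p = 0.415), below 0 in 4 of 4 pairs where 8.9% of all tested genes were, and without pair 1 the mean was -0.26. In SODgl they were -0.08, -0.03, -0.18 and -0.38 (mean -0.17 ± 0.15), all below 0 as were 9.57% of tested genes there, and without pair 2 the mean was -0.21. Its 4 probes disagreed, and their average gave -0.01 in SODgl and 0.02 in SODmn. Sirt1, a NAD-dependent deacetylase that activates the Ppargc1a product, was well above background in 11 of 32 extracts and was tested only in SODmn (mean -0.04 ± 0.08, adjusted p = 0.809).

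Among the DNA-binding partners, Esrrg had the lowest mean ratio of the tested members in either glia comparison. It encodes an estrogen-related receptor that drives oxidative metabolism genes. In SODgl its ratios were -0.21, -0.68, -0.46 and -0.72 (mean -0.51 ± 0.23), all below 0, and without pair 2 the mean was -0.46. In TAUgl they were 0.04, -0.30, -0.63 and -0.60 (mean -0.37 ± 0.31, unadjusted p = 0.0183, adjusted p = 0.289), and without TAUgl pair 1 the mean was -0.51 with adjusted p = 0.149 (0.148 to 0.939 over 15 alternatives). The TAUgl value therefore did not pass either way. In SODmn the ratios were -0.11, -0.02, 0.32 and 0.85 (mean 0.26 ± 0.43, adjusted p = 0.566), with 0.58 in pairs 3 and 4 and -0.06 in pairs 1 and 2, which were scanned separately. In TAUmn the mean was -0.08 ± 0.17 (adjusted p = 0.999), and the difference TAUmn minus TAUgl was 0.29 with adjusted p = 0.930. All of these values come from the brightest Esrrg probe. The second one, well above background in 2 of 32 extracts, averaged -0.003 in SODgl, 0.02 in TAUgl, 0.001 in SODmn and 0.02 in TAUmn.

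Esrra, the receptor that Ppargc1a is best known to coactivate, had TAUgl ratios of 0.24, 0.28, 0.16 and 0.21 (mean 0.22 ± 0.05, adjusted p = 0.477). They lay above 0 in 4 of 4 pairs, as did 8.88% of all tested genes. Single arrays were further apart than the pair means: the 2 arrays of pair 1 gave 1.41 and -0.93, and those of pair 4 gave -0.10 and 0.52. With SODgl pair 2 and TAUgl pair 1 left out the mean was 0.22 (adjusted p = 0.556, and 0.292 to 0.991 over 14 alternatives). In the other comparisons the means were 0.0051 ± 0.16 in SODmn, 0.03 ± 0.35 in SODgl (-0.06 without pair 2) and -0.14 ± 0.36 in TAUmn, with pairs on both sides of 0. TAUmn minus TAUgl was -0.36 (unadjusted p = 0.0568, adjusted p = 0.930), so a difference between the cell types was not shown.

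Gabpa, the DNA-binding subunit of GABP, had TAUgl ratios of -0.40, -0.20, -0.25 and 0.02 (mean -0.21 ± 0.17, unadjusted p = 0.0181, adjusted p = 0.289). Without pair 1 the mean was -0.14. In TAUmn all 4 ratios were below 0, as were 6.1% of tested genes, but the mean was only -0.08 ± 0.08 (adjusted p = 0.999). The means were -0.03 ± 0.20 in SODmn and -0.07 ± 0.16 in SODgl (-0.12 without pair 2). Nrf1, which encodes a factor for respiratory chain genes, could not be tested: its 2 probes were well above background in 2 and 0 of 32 extracts.

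The factors that act on mitochondrial DNA also did not pass. Tfam packages and helps transcribe mitochondrial DNA, and its TAUmn ratios were 0.07, 0.17, 0.49 and 0.55 (mean 0.32 ± 0.24, unadjusted p = 0.0861, adjusted p = 0.999). All 4 lay above 0, as did 6.49% of tested genes. In TAUgl the ratios were 0.49, -0.48, -0.60 and 0.38 (mean -0.05 ± 0.57), pointing both ways, and without pair 1 the mean was -0.24. In SODmn they were -0.26, 0.20 and -0.23 with pair 4 missing, and in SODgl 0.15, 0.75, 0.06 and 0.09, of which pair 2 was the highest (mean 0.27 with it and 0.10 without it). These values come from the probe annotated to U63712. The other 2 Tfam probes, annotated to NM_009360, were above background in 8 and 2 of 32 extracts, and in 0 and 1 of the 16 glia extracts. Their means were 0.01 and -0.02 in TAUmn, 0.02 and -0.05 in TAUgl, -0.07 and -0.06 in SODmn, and -0.03 and -0.01 in SODgl.

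Tfb2m, a transcription factor of mitochondria, had SODmn ratios of 0.58, 0.26, 0.07 and 0.01 (mean 0.23 ± 0.26, unadjusted p = 0.0300, adjusted p = 0.520). All 4 were above 0, as were 5.45% of tested genes, and the mean was 0.42 in pairs 1 and 2 but 0.04 in pairs 3 and 4. No member lay below 0 in all 4 SODmn pairs, where 7.89% of tested genes did. In TAUmn the mean was -0.12 ± 0.18, and SODmn minus TAUmn was 0.35 (unadjusted p = 0.0210, adjusted p = 0.447). In SODgl and TAUgl the means were -0.02 ± 0.22 and 0.06 ± 0.12, or -0.01 without SODgl pair 2 and 0.05 without TAUgl pair 1. Tfb1m, which methylates mitochondrial ribosomal RNA, was tested only in motor neurons, with means of -0.05 ± 0.05 in SODmn and 0.02 ± 0.05 in TAUmn.

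Across the 10 genes, 0 of 9 tested members passed in SODmn, 0 of 8 in TAUmn and 0 of 7 in TAUgl, and the share of all tested genes that passed was 0% in each of these comparisons. At an unadjusted p under 0.05 the members were 1 of 9 in SODmn (9.39% of all tested genes), 0 of 8 in TAUmn (3.45%) and 2 of 7 in TAUgl (12.9%). For SODmn minus TAUmn, Ppargc1b (0.30, unadjusted p = 0.0446, adjusted p = 0.468) and Tfb2m were the members under 0.05, against 10.4% of all genes, and for TAUmn minus TAUgl none was, against 4.89%. In SODgl, 0 of 10450 genes passed, and 14.9% had an unadjusted p under 0.05. The median member ratio was -0.03 in SODmn, -0.02 in SODgl, -0.08 in TAUmn and -0.05 in TAUgl, against medians over all tested genes of 0.00045, 0.02, -0.0060 and 0.0026.

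**Figure D2:**
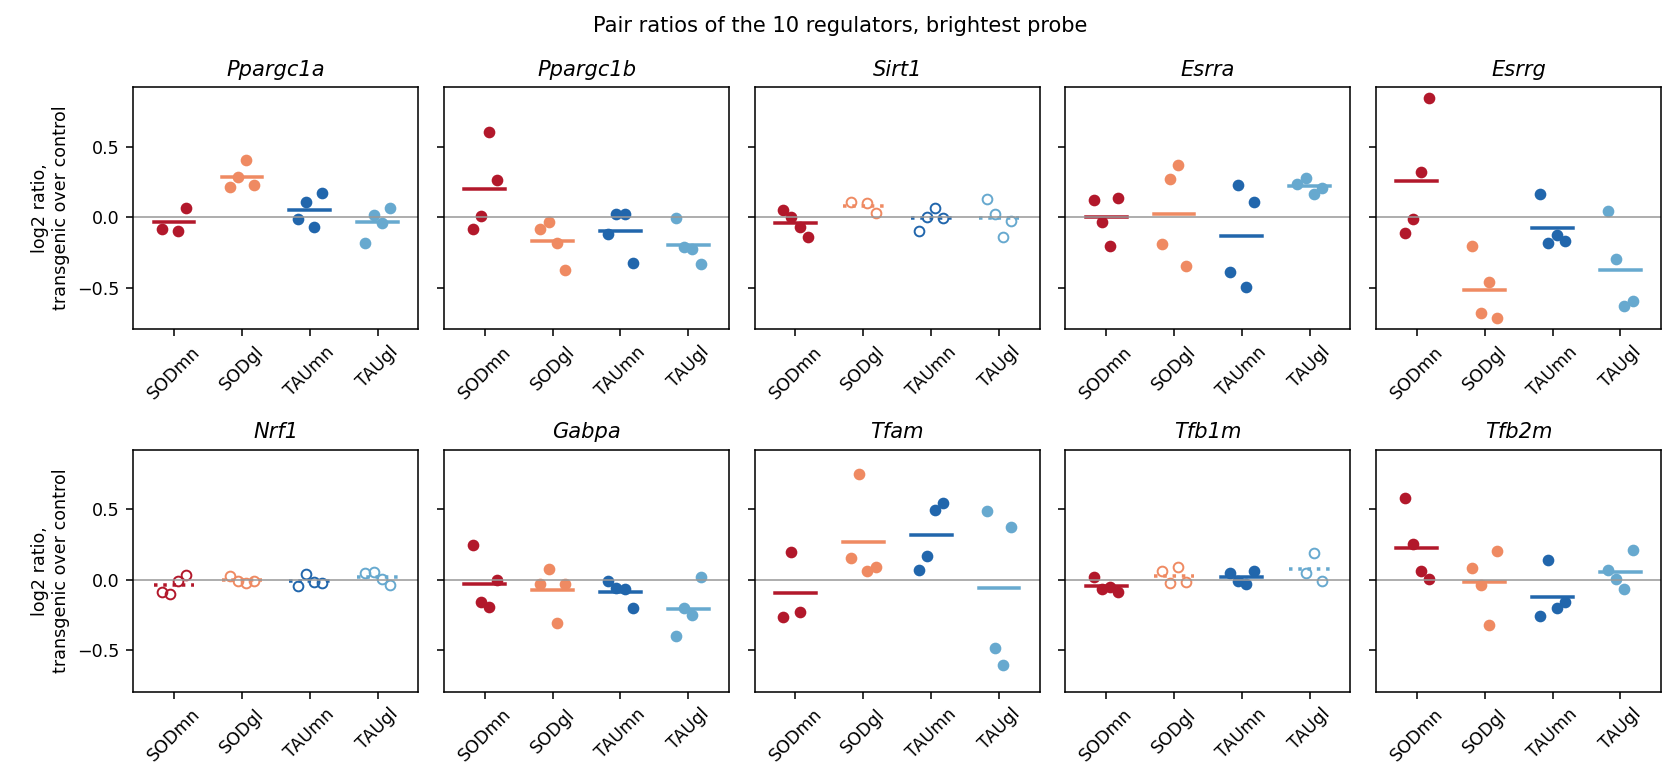
Log2 ratio (transgenic over control) of each littermate pair for the brightest probe of the 10 genes, with bars at the mean; open points and dotted bars mark comparisons where the gene was too dim to be tested. Ppargc1a lies above 0 in SODgl (mean 0.28), Esrrg lies below 0 in SODgl (mean -0.51), and no member passed the test in SODmn, TAUmn or TAUgl.

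Markers of captured cell types shifted beside these ratios in several comparisons. In SODmn motor neuron markers were above 0 in 3 of 12 tested genes (median -0.23). Prph averaged -0.23 ± 0.11 there (limma adjusted p = 0.293), below 0 in 4 of 4 pairs, as were 7.89% of all tested genes. Oligodendrocyte markers were above 0 there in 8 of 8 (median 0.12) and astrocyte markers in 7 of 9 (median 0.12), against 50.1% of all tested genes. Microglia markers were above 0 there in 5 of 7 (median 0.02) and endothelial and pericyte markers in 4 of 7 (median 0.04). The summed motor neuron marker levels ran from 2784 to 30854 in SOD1-G93A motor neurons and from 3124 to 33445 in control motor neurons. By SODmn pair the mean oligodendrocyte marker ratio was 0.30, 0.0037, 0.42 and -0.14. The astrocyte one was 0.35, 0.04, 0.12 and 0.03. The highest SODmn ratio of Tfb2m was in pair 1 (0.58), of Ppargc1b in pair 3 (0.61) and of Esrrg in pair 4 (0.85). In TAUgl motor neuron markers were above 0 in 8 of 9 tested genes (median 0.29), astrocyte markers in 0 of 8 (median -0.15) and oligodendrocyte markers in 1 of 8 (median -0.20), against 50.9% of all tested genes. Microglia markers were above 0 there in 1 of 6 (median -0.06) and endothelial and pericyte markers in 0 of 4 (median -0.07). The mean astrocyte marker ratio was -0.20, -0.23, -0.32 and -0.04 in the 4 TAUgl pairs, and the oligodendrocyte one was -0.44, -0.21, -0.08 and -0.13, so each list lay below 0 in every pair. Summed motor neuron marker levels ran from 5844 to 12818 in TAU-P301L glia and from 4371 to 10917 in control glia. Summed astrocyte levels ran from 9914 to 12547 in TAU-P301L glia and from 10899 to 17395 in control glia. In SODgl astrocyte markers were above 0 in 8 of 8 (median 0.08) and endothelial and pericyte markers in 5 of 6 (median 0.12), against 56.8% of all tested genes. Oligodendrocyte markers were above 0 there in 6 of 8 (median 0.06), microglia markers in 5 of 7 (median 0.07) and motor neuron markers in 4 of 8 (median -0.01). By SODgl pair the astrocyte mean was 0.10, 0.14, -0.06 and 0.43. The endothelial and pericyte mean was 0.22, 0.29, -0.13 and 0.43, and the motor neuron mean was -0.12, -0.48, 0.85 and -0.14. Flt1, an endothelial receptor, averaged 0.76 ± 0.49 and was above 0 in 4 of 4 SODgl pairs, as were 9.48% of tested genes. Mapt averaged 0.73 ± 0.19 in SODgl. In TAUmn motor neuron markers were above 0 in 6 of 9 tested genes (median 0.02), astrocyte markers in 3 of 8 (median -0.02) and oligodendrocyte markers in 2 of 7 (median -0.06). Microglia markers were above 0 there in 1 of 7 (median -0.05) and endothelial and pericyte markers in 2 of 6 (median -0.03), against 46.5% of all tested genes. The part of any marker shift in the member ratios was not tested.

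Between control cell types, where the design confounds cell type with scan and scanner software, Esrra was higher and Esrrg lower in motor neurons. Esrra levels ran from 7.12 over a median of 7.95 to 8.24 in control motor neurons, and from 6.45 over 7.16 to 7.61 in control glia. The difference was 0.76 ± 0.17 (SE, 8 extracts each; 1.69-fold; adjusted p = 0.00402). Of all 9917 genes tested, 36.3% passed, with 24.3% higher in motor neurons and 12% higher in glia. Esrra did not pass in the SOD colony alone (0.54, adjusted p = 0.219) but did in the TAU colony (0.98, adjusted p = 0.0250), and its adjusted p over 27 alternatives ran from 0.000347 to 0.219. The mean of its 2 probes, of which the second was above background in 1 of 32 extracts, gave 0.31.

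Esrrg levels ran from 6.72 over a median of 7.38 to 8.20 in control motor neurons, and from 6.22 over 9.01 to 9.44 in control glia. The difference was -1.17 ± 0.38 (SE; 0.444-fold; adjusted p = 0.0238). The lowest glial value, 6.22, came from TAUgl pair 1, where the transgenic extract was also low at 6.26, while the other 3 TAU controls lay at 9.18 to 9.28. Without that pair the difference was -1.55 with adjusted p = 5.11e-05, and the range over 27 alternatives was 3.17e-05 to 0.414. The SOD colony alone gave -1.61 (adjusted p = 0.0173) and the TAU colony alone -0.74 (adjusted p = 0.414), and the mean of both Esrrg probes gave -0.53. The second Esrrg probe, well above background in 2 of 32 extracts, differed by 0.15 on its own.

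The other 5 tested members did not pass. Ppargc1a differed by -0.04 (adjusted p = 0.839, 95% interval -0.36 to 0.27), with levels of 6.45 to 7.06 in control motor neurons and 6.18 to 7.11 in control glia. Ppargc1b differed by -0.29 (adjusted p = 0.385). Leaving out SODgl pair 2 and TAUgl pair 1, a choice made after the data were seen, gave -0.61 with adjusted p = 0.0170. Over 27 alternatives its adjusted p ran from 0.0170 to 0.623 and was under 0.05 in 2. The dimmer Ppargc1b probes differed by -0.14, 0.26 and -0.21. Gabpa differed by 0.17 (adjusted p = 0.343), Tfam by -0.11 (adjusted p = 0.733) and Tfb2m by 0.30 (unadjusted p = 0.0476, adjusted p = 0.102). The dimmer Tfam probes differed by 0.25 and 0.12, the other way from its brightest probe. Tfb2m passed without the control of SODgl pair 3 (0.38, adjusted p = 0.0301) and with quantile normalization (0.36, adjusted p = 0.0440), and its adjusted p reached 0.701 over 27 alternatives. Tfb1m was not tested, being well above background in 6 of 8 control motor neuron extracts and 1 of 8 control glia extracts. Its levels were 6.40 to 6.65 in control motor neurons and 5.89 to 6.18 in the 7 control glia extracts with a value, without overlap. Among tested genes, 3.25% had all 8 motor neuron extracts above all 8 glia extracts, a count that leaves Tfb1m out. With no filter on dim probes Tfb1m differed by 0.53 (limma adjusted p = 0.000154). In that setting far more genes passed than as reported, and most Tfb1m glia values in it were not well above background. These values come from its brightest probe. The other Tfb1m probe, well above background in 3 of 32 extracts, differed by -0.08, with overlapping levels. No member had all motor neuron extracts below all glia extracts, as 0.776% of tested genes did.

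**Figure D3:**
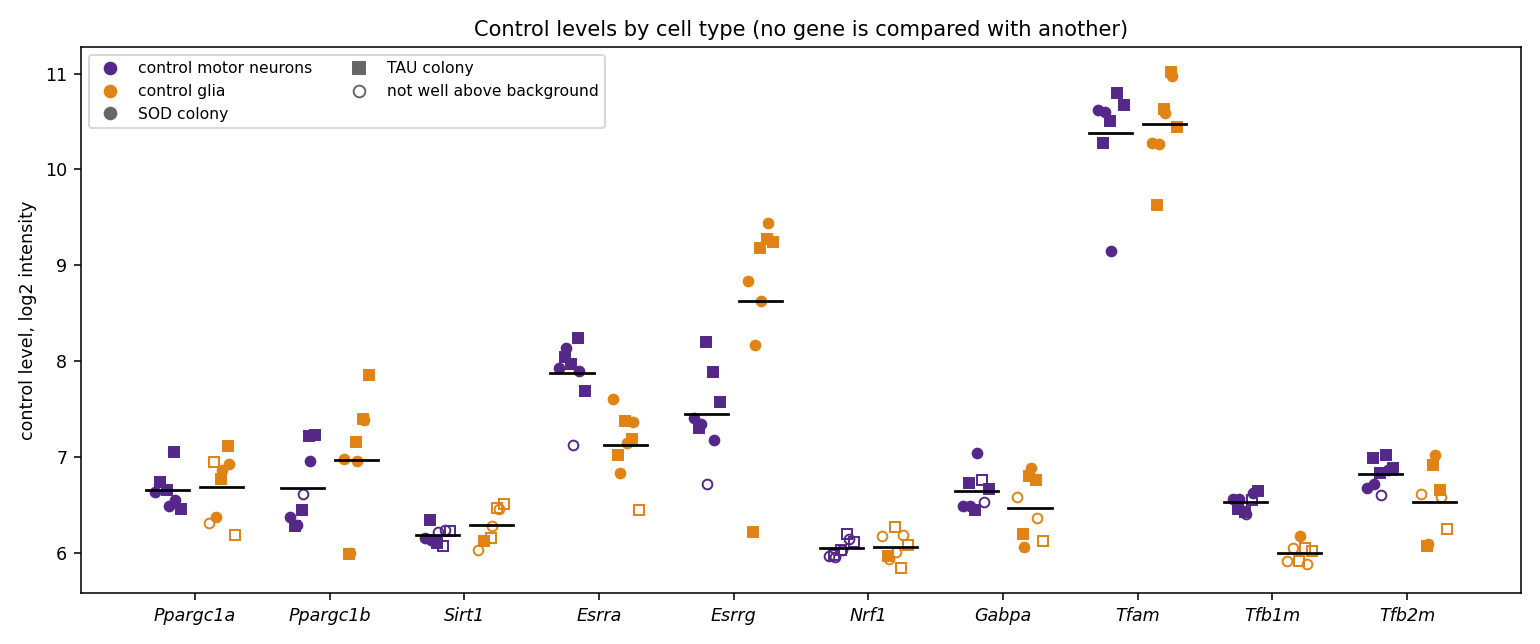
Normalized log2 intensity of the 10 genes in the control extracts of motor neurons (purple) and glia (orange), with circles for the SOD colony, squares for the TAU colony, open symbols for extracts not well above background, and bars at the mean. Esrra sits higher in motor neurons and Esrrg higher in glia, apart from the TAUgl control at 6.22, and levels are not compared between genes.

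Genes around the coactivator were read from 7 lists in the same control comparison. In the import and chaperone list 9 of 14 tested genes were higher in motor neurons and 0 lower, with a median of 0.52 against 0.11 over all tested genes, of which 24.3% were higher and 12% lower. Among these were Timm23 (1.27, adjusted p = 0.000106) of the inner membrane translocase, the outer membrane receptors Tomm70a (0.80) and Tomm20 (0.63), and the chaperone Hspa9 (0.92). Fusion and fission genes were higher in 3 of 6 (Fis1 0.43, Opa1 0.44, Mfn2 0.46) and lower in 0.

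The remaining lists are to be read against the same 24.3% and 12%, and several had counts near them. Partners and co-regulators were higher in 4 and lower in 2 of 15. The nuclear receptor coactivator Ncoa1 differed by 1.14 (adjusted p = 0.00144) and the mediator subunit Med1 by -1.87 (adjusted p = 0.00548). Upstream kinases and modifiers were higher in 4 and lower in 0 of 13, led by the calcineurin subunit Ppp3ca (1.55, adjusted p = 0.000293). Genes that copy and transcribe mitochondrial DNA were higher in 2 and lower in 1 of 10 (Lonp1 0.60, Ssbp1 0.32, Dguok -0.60).

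Antioxidant and metabolic targets were higher in 6 and lower in 2 of 15, with Idh3a, a citric acid cycle enzyme, at 1.18 and Fndc5 at -0.89. Among neuronal targets, the synaptic gene Cplx1 was higher by 1.17 (adjusted p = 0.00299). No list gene passed in SODmn, TAUmn or TAUgl. Med1 lay below 0 in 4 of 4 pairs in either glia comparison (mean -0.70 ± 0.42 in SODgl and -0.56 ± 0.49 in TAUgl, limma adjusted p = 0.283 in TAUgl). Of all tested genes, 9.57% lay below 0 in all 4 pairs in SODgl and 8.9% in TAUgl.

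**Figure D4:**
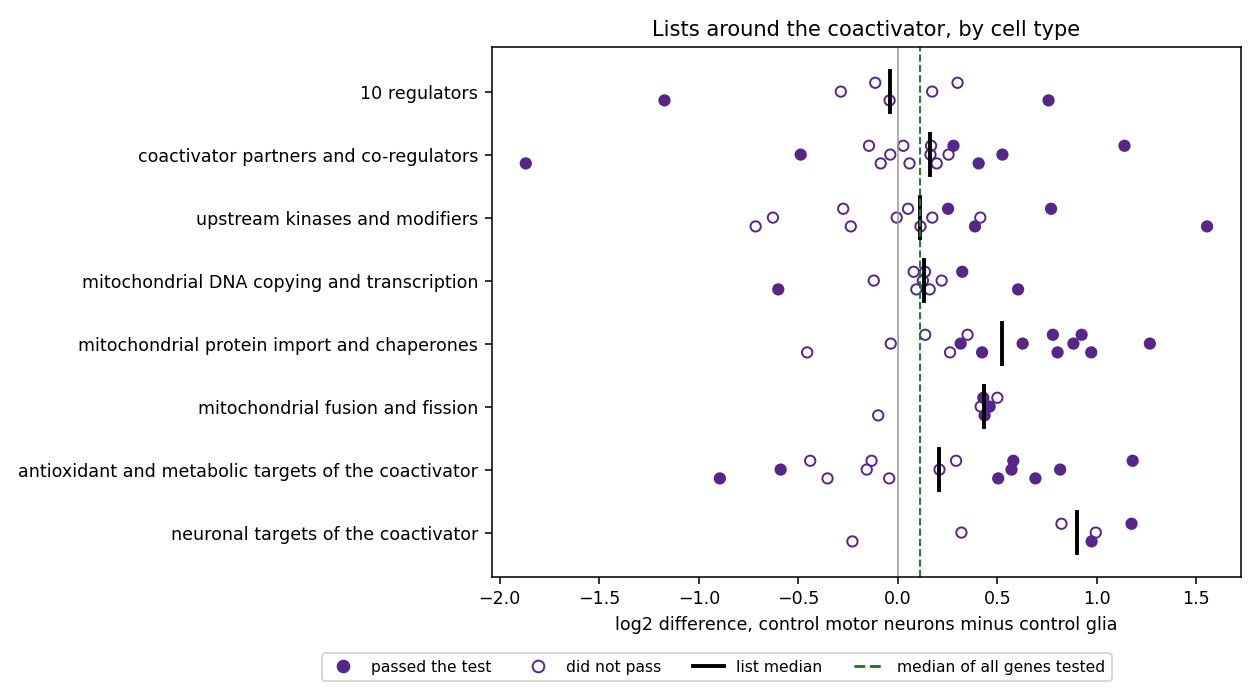
Log2 difference (control motor neurons minus control glia) of each tested gene in the 10 regulators and 7 lists around the coactivator; filled points passed the limma test, black bars are list medians and the dashed line is the median of all tested genes (0.11). The import and chaperone list has 9 filled points above 0 and a median of 0.52.

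The genes most like Ppargc1a were sought over the 15 pairs and 15 control extracts in which it had a value, 1 fewer than all 16, and correlations are descriptions over points that share scans. Over pair ratios, Ccdc88c (r = 0.89), Midn (0.88), Kif1b (0.83), Camsap1 (0.83) and Zfp688 (0.81) were highest among 5773 genes, whose median r was 0.05. Over control levels, Mpv17 (0.76), Pabpc1 (0.74), Plin2 (0.71), Ermp1 (0.71) and Cdc42bpa (0.70) were highest among 7128 genes with a median r of 0.16. The pair ratios include the SODgl values that selected Ppargc1a, and the 5 genes highest over pair ratios had SODgl means of 0.23 to 0.53. No other member was among the genes named. Only Esrra, Gabpa, Tfb2m, Ppargc1b and Esrrg could be ranked, because the rest lacked a value or were too dim. Over pair ratios their r with Ppargc1a ran from 0.21 for Esrra to -0.43 for Esrrg.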

How the data were processed

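In the deposited scanner output, brightness is given as linear intensity and dye balance as a log10 value (Cy5 over Cy3), made by the authors with Agilent Feature Extraction (8.5.1.1 for motor neurons and 9.5.1.1 for glia, per the file headers; 8.5.1.1 per the submitters' processing notes). The deposited flags of other kinds mark outlier spots and spots well above background. The authors' deposited series matrix of log10 ratios followed the scanner ratios and was not used further. Its number of columns not matched to a sample was 0.

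Mean intensity was corrected with normexp (offset 50) and loess in limma 3.58.1 under R 4.3.3, giving log2 ratios from the deposited intensity. Spots marked as outliers were left out, and a pair was the mean of its 2 arrays, missing if either was. A joint model in limma covered all 16 pairs, with a mean for each comparison and Benjamini-Hochberg adjustment (threshold 0.05) over all genes. The brightest probe stood for its gene, which was tested where at least 4 of 8 extracts were well above background. Control cell types were compared on Aquantile-normalized single-channel log2 levels with colony as a covariate, where at least 8 of 16 control extracts were well above background. The number of arrays limits the precision.

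Members, lists, tests and alternatives were chosen with earlier results of these data known. Named genes are all 10 members, list genes that passed or had the 2 smallest p values, the 5 genes most like Ppargc1a by each measure, and Sod1, Mapt and Prnp. Of the list genes that this rule selects, 1 is not reported here. The likeness rule asked for 16 points, and 15 were used because 1 Ppargc1a value is missing. Alternatives covered background correction, normalization, probe choice, dim probes, scan, dye, colony, replicate block and single pairs left out. Added after the data were seen were a prior spread over all genes, and 2 versions of leaving out pairs whose arrays correlate below -0.3. The version over all genes was run first, and the version over the genes tested was added after its result was known. Scripts were tested on simulated data.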

Additional observations from a re-analysis of the deposited data

Results flagged for a closer look

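Of 55 groups of 4 values examined, 3 held a value far from the other 3, and chance gives about 1 such group in 20. The Tfam ratio of SODgl pair 2 was 0.754, while the other pairs lay at 0.0642, 0.093 and 0.152. The Esrrg level of the TAUgl control extract of pair 1 was 6.22, while the other controls lay at 9.18, 9.24 and 9.28. Both come from the pairs whose dye-swapped arrays correlated below -0.3 over the genes tested, and the part of that in these values was not tested. The Gabpa level of the SODmn control extract of pair 3 was 7.04, while the others lay at 6.49, 6.49 and 6.53. None of 25 comparisons examined had all pairs of a group above 0 and all pairs of the other below 0.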

How the results depend on the processing

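No member had an adjusted p under 0.05 in SODmn, TAUmn, TAUgl or the tested differences under any alternative run. Counts of genes passing, 0 as reported in each ratio comparison, changed as follows. In SODmn they were 17 with subtracted background and a floor of 1, 1 with no filter on dim probes and 1 with the prior spread over all genes. In SODgl they were 5 with scan as a random block, 8 with the prior spread over all genes and 1 without the 4 pairs whose arrays correlate below -0.3 over all genes (pairs 1 and 2 of SODgl and of TAUgl). Leaving out instead the 2 pairs below -0.3 over the genes tested gave 0 in SODgl, 1 in TAUgl and 1 for TAUmn minus TAUgl. Both ways of leaving out pairs were chosen after seeing the data, the second after the first had been run. Leaving out 1 pair at a time gave 0 to 1 in SODmn, SODgl, TAUgl and both differences and 0 in TAUmn. The control comparison had 3597 genes as reported, 7302 with no filter on dim probes, 480 in the SOD colony alone, 1399 in the TAU colony alone, 1450 with the control in Cy5 alone, and 2996 to 4378 with 1 pair left out.

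Ppargc1a in SODgl was 0.79 by the scanner ratio and 0.17 as the mean of its probes. Esrra between control cell types was 0.54 in the SOD colony alone (adjusted p = 0.219) and 0.76 with the control in Cy5 alone (adjusted p = 0.0752). Esrrg was -0.74 in the TAU colony alone (adjusted p = 0.414) and -1.27 with the control in Cy5 alone (adjusted p = 0.0855). The cause was not tested in any of these. Deviations of same-numbered pairs correlated across cell types at -0.12 to 0.30 in pair ratios and -0.07 to 0.53 in control levels, not over 0.1 in every pair, so the numbers were not taken to pair the samples. With the replicate block 3142 genes passed between control cell types and 0 for TAUmn minus TAUgl.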
